A study of Mus musculus with 20 samples.

Results

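The glutamate and GABA receptor genes were taken by symbol. All genes named Gria, Grin, Grik, Grid, Grm, Gabr or Gabbr with a subunit letter or number were kept, which gave 47 of the 45705 genes in the table. They comprised 18 ionotropic glutamate receptor genes (4 AMPA, 7 NMDA, 5 kainate and 2 delta), 8 metabotropic glutamate receptor genes, and 21 GABA receptor genes (19 GABA-A and 2 GABA-B). RNA was sequenced from 5 populations sorted by surface antigens from the periventricular zone of Swiss Webster mouse pups at postnatal day 5, with 4 libraries of each population, 1 from each of batches 1 to 4. Pups of a litter were pooled and both sexes were used, so a library is a pool of pups, not 1 animal, and the labels name no transgene and no treatment for any group. The neural stem cell (NSC) gate was CD133+ CD15+ and negative for NG2 and CD140a. The 4 progenitor gates were all NG2+ and CD133-: BNAP/GRP1 was CD140a- CD15+, GRP2/MP3 was CD140a- CD15-, GRP3 was CD140a+ CD15-, and PFMP was CD140a+ CD15+. CD140a is the platelet-derived growth factor receptor alpha and CD15 the Lewis X carbohydrate. BNAP/GRP1 and GRP2/MP3 are each 2 kinds of progenitor that share their antigens, and the NG2+ gate can also hold pericytes. In such sorted bulk samples, fewer cells of a type and less RNA per cell cannot be told apart.

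Glutamate, the main excitatory transmitter of the brain, opens cation channels built from AMPA, kainate or NMDA subunits, and acts more slowly through the G protein-coupled mGlu receptors. GABA opens chloride channels of the GABA-A family, which in the developing brain often depolarise the cell, and acts on the G protein-coupled GABA-B heterodimer. Oligodendrocyte precursor cells (OPCs), which carry NG2 and CD140a, are known to bear functional AMPA and GABA-A receptors and to receive synapses from neurons, and stem cells of the subventricular zone respond to GABA released by neuroblasts.

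Values are RPKM, reads per kilobase of gene and per total reads in the library, and are scaled to length. The RNA was amplified from polyA ends and the gene lengths used are not given. Levels of different genes, and shares of a family, can thus be set side by side only roughly. Differences are on the log2(RPKM + 1) scale with their standard error, which understates changes of genes near 0. Several libraries stood apart before any receptor was considered. In batch 3, receptor levels were low in all 5 gates: the 47 genes summed to 4.79 to 14.6 RPKM there and to 44.6 to 557 RPKM in the other 15 libraries, and 45 of the 47 were under 1 RPKM in every library of batch 3, as were 64.1% of all genes. The OPC markers of the CD140a+ gates were also low in batch 3 (15.2 to 15.7 RPKM summed over 8 genes, against 379 to 3667 in the other batches), while 6 microglia markers summed to 639.8 to 736 in all 5 gates. That sum was carried by C1qa (518 to 589 RPKM), Csf1r (78.7 to 90.6) and Aif1 (40.7 to 54.4), whereas P2ry12, Cx3cr1 and Tmem119 were at 0.355 to 1.49. By the spacing of low values the libraries of batch 3 were not shallow, at 0.733 to 1.41 of the depth of BNAP/GRP1 1. The library BNAP/GRP1 4 was the shallowest on this scale, at 0.0395 (the other libraries were at 0.118 to 1.41). There the median gene was at 8.30 RPKM, against at most 2.02 elsewhere, and 24 of the 47 receptor genes had their highest value of all 20 libraries in it. Of all genes with any value, 57.6% were highest there.

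Receptor transcripts were more abundant in the CD140a+ gates of batches 1, 2 and 4 than in any other library but BNAP/GRP1 4. Summed over the 47 genes, GRP3 1, 2 and 4 held 499, 557 and 362 RPKM and PFMP 1, 2 and 4 held 452, 392 and 401. NSC 1, 2 and 4 held 81.8, 74.9 and 175. The CD140a- gates held 100.1 and 155 (BNAP/GRP1 1 and 2) and 44.6, 70.4 and 203 (GRP2/MP3 1, 2 and 4), and BNAP/GRP1 4 held 543. In batches 1 and 2 both CD140a+ gates exceeded every other gate, whereas in batch 4 BNAP/GRP1 was highest. The heat map of the genes shows both features, the dark columns of batch 3 and the raised column of BNAP/GRP1 4.

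**Figure D1:**
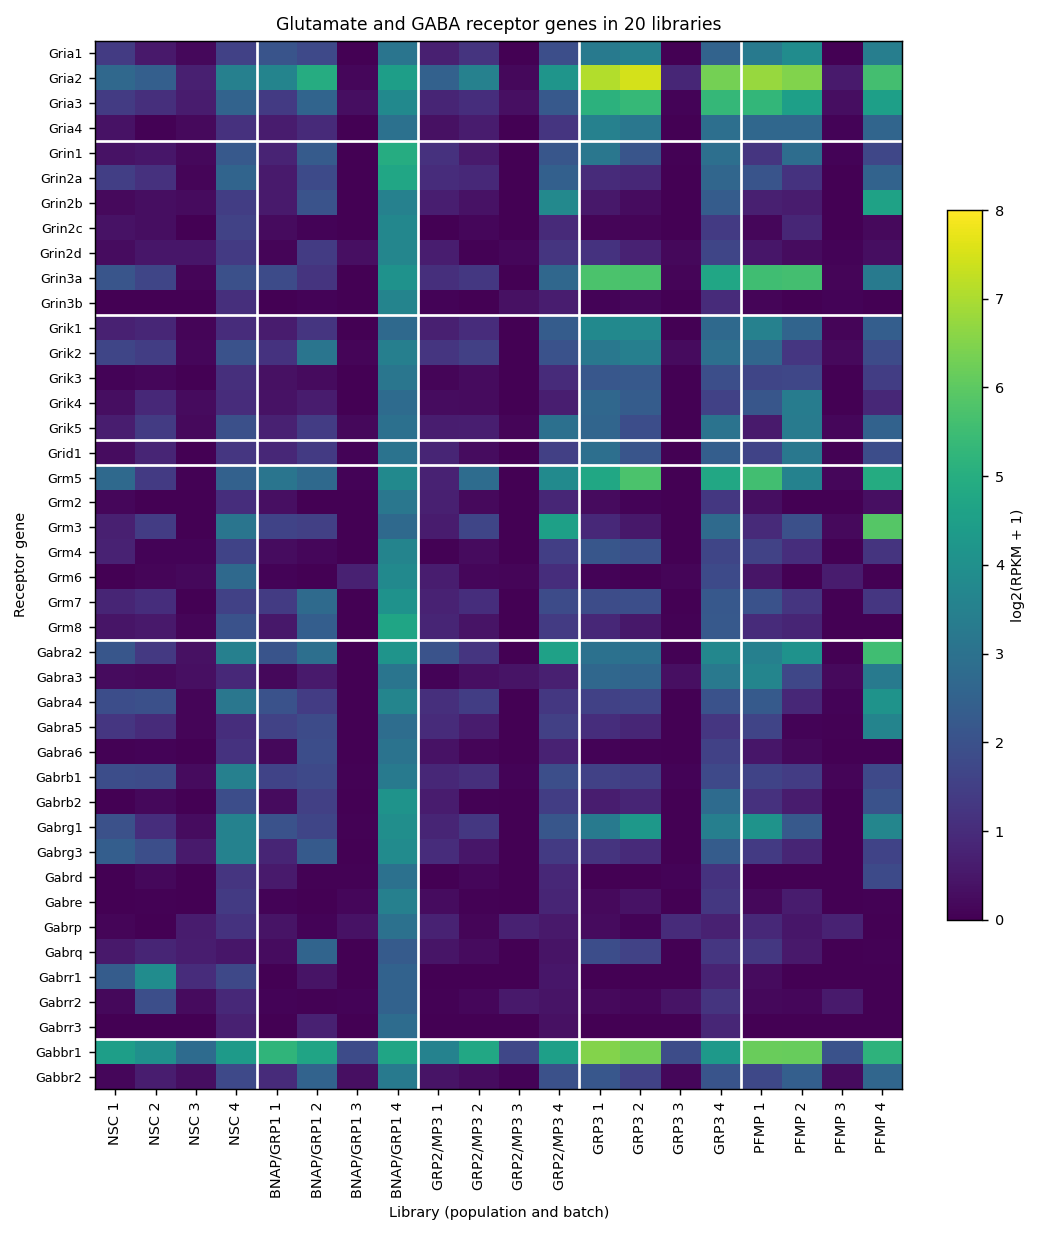
Level of 42 of the receptor genes (rows, by family) in each of the 20 libraries (columns, by population and batch), as log2(RPKM + 1) from dark (0) to bright (8). Among the brightest cells are Gria2 in GRP3 and PFMP of batches 1, 2 and 4, and Gabbr1 and Grin3a in those gates of batches 1 and 2. Single bright cells lie elsewhere, such as Grm3 in PFMP 4. The columns of batch 3 are dark in all populations.

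Of the 47 genes, 40 reached 1 RPKM in at least 4 libraries and were tested with limma among 27614 genes. The untested 7 were Grin2c, Grin3b, Grm2, Gabre, Gabrp, Gabrr2 and Gabrr3. They stayed under 3 RPKM in all libraries other than BNAP/GRP1 4. Libraries of the same batch deviated together, so each comparison is given without and with the batch as a term in the model. With all 20 libraries, 4 genes passed the threshold (adjusted p under 0.05) in at least 1 comparison: Gria2, Gria3 and Grin3a, higher in CD140a+ gates, and Gabrr1, higher in NSCs.

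The first comparison set the CD140a+ progenitors (GRP3 and PFMP, 8 libraries) against the CD140a- progenitors (BNAP/GRP1 and GRP2/MP3, 8 libraries), all NG2+. Without the batch term no receptor gene passed, nor did any other gene (0% of genes tested higher and 0% lower), and at an unadjusted p under 0.05 there were 6 receptor genes higher and 0 lower, beside 1.62% and 2.8% of all genes. With the batch term 3 of the 40 were higher and 0 lower, where 0.442% and 0.999% of all genes were called. Counted over all 47 genes with no filter, 12 were higher in CD140a+ gates in each of batches 1, 2 and 4 (7.66% of all genes) and 5 were lower in each (16.3%). The median difference over the 47 was 0.17, beside -0.26 over all 42687 genes with any value. By batch the members' median was 0.86, 0.19, 0.00224 and -0.38 in batches 1 to 4, so the difference was seen in batches 1 and 2 and had the opposite sign in batch 4, where the median over all genes was -0.95.

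**Figure D2:**
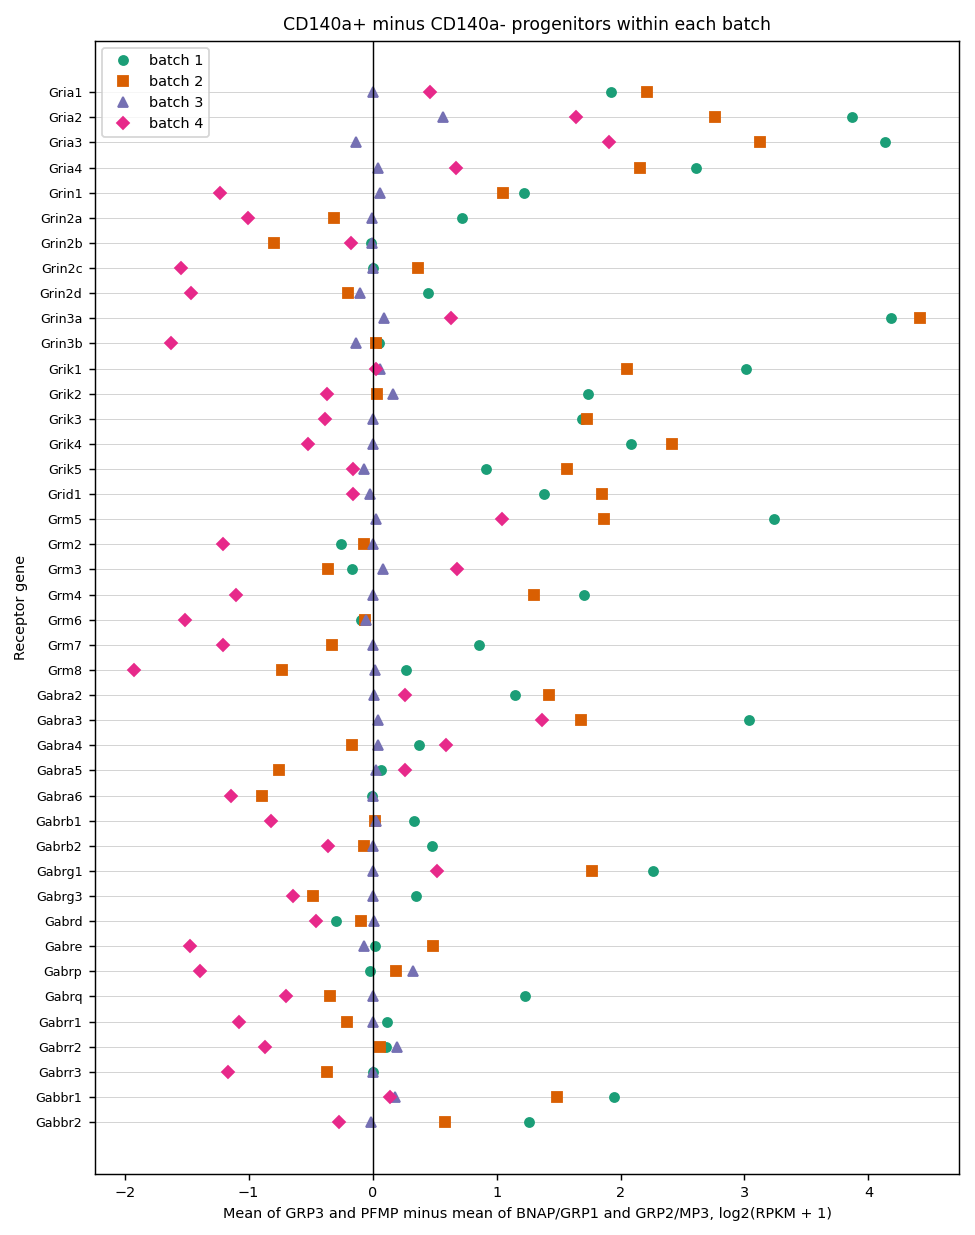
Difference between the mean of GRP3 and PFMP and the mean of BNAP/GRP1 and GRP2/MP3 within each batch, on the log2(RPKM + 1) scale, for 42 of the receptor genes; 1 point is 1 batch. Gria2 and Grin3a lie right of 0 in all 4 batches, most genes lie near 0 in batch 3, and many low genes lie left of 0 in batch 4.

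Of the 4 AMPA receptor genes, Gria2 and Gria3 set the CD140a+ gates apart from the other gates outside batch 3. Gria2 (ENSMUSG00000033981, chr3:80681450-80802835, minus strand, GRCm38) encodes GluA2, the subunit whose edited form makes AMPA channels impermeable to calcium, and it was the receptor gene with the highest mean level. In batches 1 to 4 it was at 134, 179, 0.802 and 79.0 RPKM in GRP3 and at 107, 88.8, 0.494 and 48.1 in PFMP. It was at 11.2, 29.7, 0.0910 and 21.3 in BNAP/GRP1, at 4.55, 10.4, 0.127 and 17.0 in GRP2/MP3 and at 5.51, 4.40, 0.625 and 10.2 in NSC. Outside batch 3 every CD140a+ library lay above every CD140a- and NSC library, while within batch 3 all values were under 1 RPKM. The CD140a+ mean was 79.6 ± 62.2 RPKM (SD, n = 8 libraries, 2 gates from each of 4 batches) and the CD140a- mean 11.8 ± 10.5. The difference was 2.21 (SE 1.03, limma adjusted p = 0.895 without the batch term, and SE 0.46, adjusted p = 0.0377 with it), and by batch it was 3.87, 2.77, 0.57 and 1.64.

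Gria3 (ENSMUSG00000001986, chrX:41400854-41678601, plus strand), which encodes GluA3, had a like pattern at a lower level. It was at 34.5, 39.7, 0.0507 and 39.3 RPKM in GRP3 and 38.6, 21.9, 0.220 and 21.7 in PFMP. Values were 1.56, 4.91, 0.230 and 13.01 in BNAP/GRP1, 0.781, 1.07, 0.258 and 3.66 in GRP2/MP3 and 1.64, 1.11, 0.538 and 4.85 in NSC. The CD140a+ libraries of batches 1, 2 and 4 did not overlap with any other library, and in batch 3 the CD140a+ gates were slightly lower. The difference was 2.26 (SE 0.81, limma adjusted p = 0.824 without the batch term, and SE 0.51, adjusted p = 0.0415 with it), and by batch 4.14, 3.12, -0.14 and 1.904. Gria1 (GluA1) and Gria4 (GluA4) did not pass: the CD140a+ mean of Gria1 was 7.04 ± 4.98 RPKM against 2.25 ± 2.51 (adjusted p = 0.166 with the batch term), and that of Gria4 5.12 ± 3.58 against 1.31 ± 2.30 (adjusted p = 0.101). Both were higher in BNAP/GRP1 4 (7.67 and 6.90) than in GRP3 4 (4.88 and 6.62).

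In all 15 libraries outside batch 3 Gria2 was the most abundant of the 4 AMPA genes. It held 56.0% to 73.1% of their summed RPKM in NSC, 43.6% to 78.3% in BNAP/GRP1, 68.5% to 78.3% in GRP2/MP3, 60.9% to 75.5% in GRP3 and 56.8% to 68.3% in PFMP. Gria3 held 16.8% to 30.3% in GRP3 and 16.9% to 25.7% in PFMP, above its share in GRP2/MP3 (8.09% to 14.8%) and overlapping with that in NSC (18.1% to 26.7%) and BNAP/GRP1 (9.46% to 26.6%). Gria1 held 3.76% to 4.73% in GRP3, below its share in every other population (5.52% to 19.3%). The ranges of Gria2 overlapped between CD140a+ and CD140a- gates, although that of PFMP ended just under that of GRP2/MP3.

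RefSeq promoter sequence was at hand for 32 of the 47 genes, and of the 4 genes past the threshold for Gria2 and Gabrr1. Their bases before the first annotated transcript start are shown because they are the genes with opposite patterns, Gria2 highest in CD140a+ gates and Gabrr1 highest in NSCs (GRCm38.p6, 5′ to 3′ in the direction of the gene).
Gria2, chr3:80802836-80803085, minus strand: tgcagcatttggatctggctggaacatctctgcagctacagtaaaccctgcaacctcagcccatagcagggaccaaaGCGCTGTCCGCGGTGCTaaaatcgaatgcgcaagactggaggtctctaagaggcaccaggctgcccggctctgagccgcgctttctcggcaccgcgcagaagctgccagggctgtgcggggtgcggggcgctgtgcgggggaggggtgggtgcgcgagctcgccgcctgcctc
Gabrr1, chr4:33132306-33132520, plus strand: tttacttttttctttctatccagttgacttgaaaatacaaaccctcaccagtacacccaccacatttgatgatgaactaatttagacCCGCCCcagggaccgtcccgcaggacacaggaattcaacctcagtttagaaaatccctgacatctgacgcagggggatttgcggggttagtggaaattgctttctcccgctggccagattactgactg
In Gria2 the capitals mark a match, on the strand opposite to the gene, to the core of RE1, the element bound by REST, a repressor of neuronal genes. Its letters, searched on both strands, are the capitals read on the opposite strand with 1 position left free, and the motif was chosen after the sequence was seen. The match begins 173 bases before the start and was found in 3 of 32851 promoter windows of 250 bases (0.00913%). Since the letters were taken from this window, so low a share was set by their choice and does not measure how common RE1 is. In Gabrr1 the capitals mark a GC box (GGGCGG, both strands), 128 bases before the start, a motif present in 32.7% of all windows and absent from the Gria2 window. E-boxes (CANNTG, 66.2% of windows) occurred 1 time in Gria2 and 3 times in Gabrr1. Neither window held TTCAGCACC, the left part of RE1, which occurred in 0.301% of windows. The Gria2 window thus matched the RE1 core chosen from it, but not this left part in full. GTTGCC and TAAACA, which occurred in 10.4% and 12.03% of windows, were also absent from both. The Gabrr1 window, cut at the first annotated transcript, is 215 bases long. The Gria2 window was 64.8% G or C and the Gabrr1 window 47.0%.

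Among NMDA receptor genes the gates differed in Grin3a (ENSMUSG00000039579, chr4:49661611-49845744, minus strand), which encodes GluN3A, a subunit that lowers the calcium permeability and magnesium block of NMDA channels. It was at 52.5, 51.4, 0.0702 and 25.4 RPKM in GRP3 and 45.7, 48.3, 0.0747 and 8.90 in PFMP. BNAP/GRP1 had 2.57, 1.33, 0.00758 and 16.03, GRP2/MP3 1.13, 1.43, 0 and 5.35 and NSC 3.34, 2.16, 0.0872 and 2.91. In batches 1 and 2 all CD140a+ libraries lay above all others, whereas PFMP 4 lay below BNAP/GRP1 4. The difference was 2.33 (SE 0.88, limma adjusted p = 0.894 without the batch term, and SE 0.56, adjusted p = 0.0453 with it), and 4.18, 4.42, 0.10 and 0.64 by batch.

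Grin1 encodes GluN1, which every NMDA receptor needs. It was at 7.99, 3.34, 0.0258 and 6.63 RPKM in GRP3, 1.36, 6.22, 0.0548 and 2.25 in PFMP, 0.754, 3.93, 0 and 30.2 in BNAP/GRP1, 1.23, 0.484, 0 and 3.37 in GRP2/MP3 and 0.300, 0.413, 0.116 and 3.74 in NSC. The gates overlapped, and the difference was 0.27 ± 0.45 (adjusted p = 0.758 with the batch term). Grin3a was the leading NMDA gene by level in GRP3, where it held 55.2% to 90.7% of the family's summed RPKM outside batch 3, and it held 22.3% to 88.8% in PFMP, 16.2% to 54.9% in NSC, 10.6% to 56.0% in BNAP/GRP1 and 18.6% to 43.8% in GRP2/MP3. It was first in 9 of the 15 libraries, NSC 1 and 2, BNAP/GRP1 1 and GRP2/MP3 2 among them. Grin2b, which encodes GluN2B, went from 0.204 to 0.624 RPKM in the CD140a+ libraries of batches 1 and 2, and reached 23.4 in PFMP 4 and 12.7 in GRP2/MP3 4. Grin2a and Grin2d, which encode GluN2A and GluN2D, were at most 5.24 and 2.15 outside BNAP/GRP1 4. The stacked plot shows how the NMDA makeup varied between libraries.

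**Figure D3:**
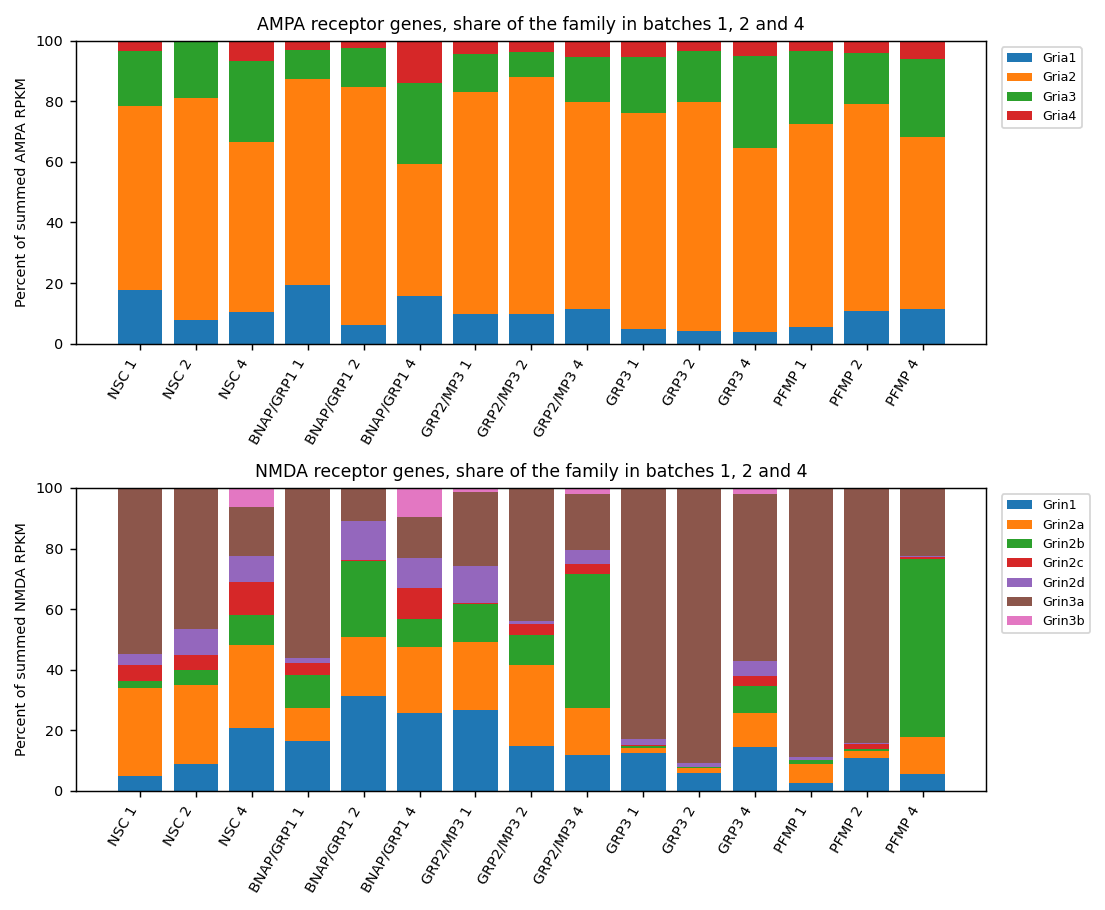
Share of each gene in the summed RPKM of its family, in percent, for the 4 AMPA (upper) and 7 NMDA (lower) receptor genes in the 15 libraries of batches 1, 2 and 4. Gria2 is the largest AMPA share in every bar, and Grin3a the largest NMDA share in GRP3 and in PFMP 1 and 2, while Grin2b leads in PFMP 4 and GRP2/MP3 4.

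**Figure D4:**
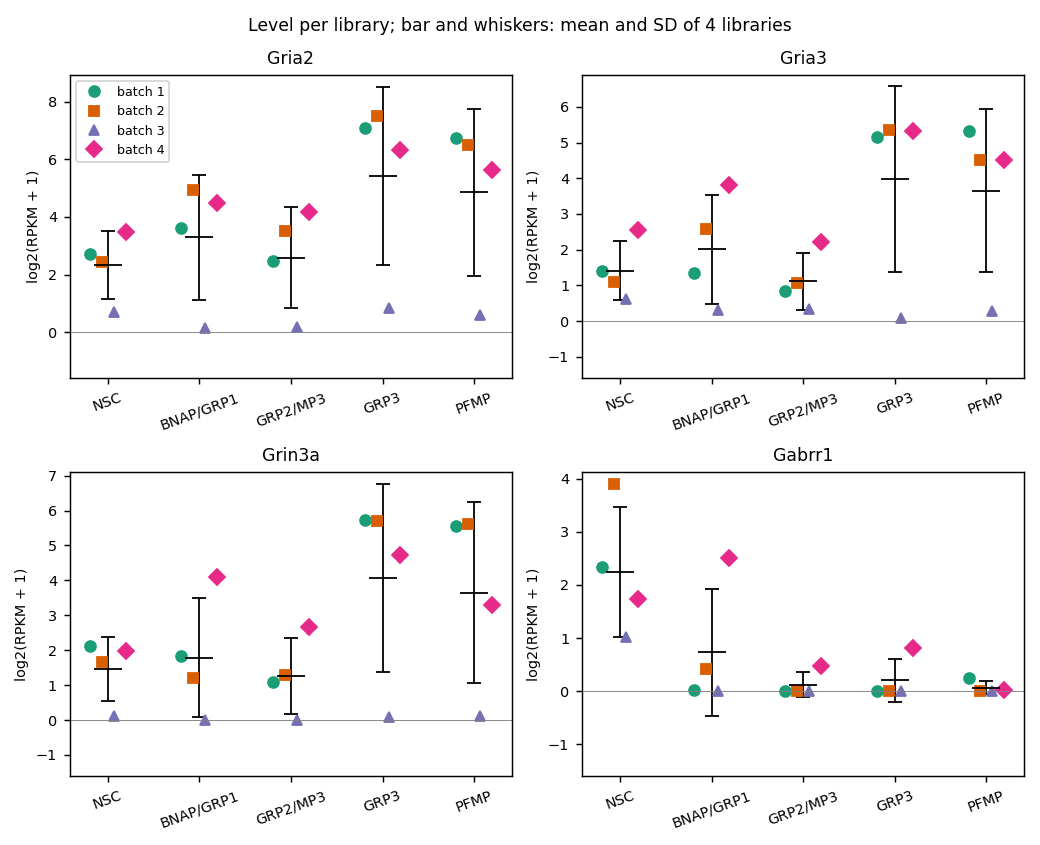
Level of Gria2, Gria3, Grin3a and Gabrr1 in each library, as log2(RPKM + 1), by population (x axis) and batch (symbol), with the mean and SD of the 4 libraries as bar and whiskers. GRP3 and PFMP of batches 1, 2 and 4 are the highest for Gria2 and Gria3, and NSC is the highest for Gabrr1 outside BNAP/GRP1 4. In batch 3 all values are low, the highest being Gabrr1 in NSC and the next Gria2 in GRP3.

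Kainate receptor genes were lower, the highest value of the 5 being 12.9 RPKM. Grik1 (GluK1) was at 12.9, 12.7, 0 and 5.63 RPKM in GRP3, 10.6, 4.97, 0.0903 and 4.19 in PFMP, 0.518, 1.36, 0 and 5.67 in BNAP/GRP1, 0.629, 1.015, 0 and 3.99 in GRP2/MP3 and 0.671, 0.818, 0.0898 and 1.03 in NSC. It was higher in the CD140a+ gates in batches 1 and 2 and level in batches 3 and 4 (3.01, 2.05, 0.06 and 0.02), with a difference of 1.29 (SE 0.61, limma adjusted p = 0.895 without the batch term, and SE 0.42, adjusted p = 0.157 with it). Grik2 (GluK2) was at 8.23, 9.87, 0.185 and 6.65 in GRP3, 5.26, 1.38, 0.161 and 2.52 in PFMP, 1.23, 7.60, 0.0786 and 10.01 in BNAP/GRP1, 1.34, 1.88, 0.0169 and 3.05 in GRP2/MP3 and 2.18, 1.74, 0.109 and 3.02 in NSC, and the gates overlapped (0.39 ± 0.37, adjusted p = 0.599 with the batch term). Outside BNAP/GRP1 4, Grik3, Grik4 and Grik5, of which the last 2 encode high-affinity subunits that need a partner, reached 3.67, 9.23 and 9.14, and none passed in any comparison.

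Grid1 encodes GluD1, a delta receptor that binds cerebellins rather than glutamate and helps to organise synapses. It was at 6.51, 3.31, 0.00236 and 4.21 RPKM in GRP3, 2.03, 8.15, 0.0250 and 2.71 in PFMP, 0.868, 1.55, 0.0580 and 7.30 in BNAP/GRP1, 0.794, 0.193, 0 and 1.89 in GRP2/MP3 and 0.205, 0.790, 0 and 1.41 in NSC. The gates overlapped (0.76 ± 0.38, adjusted p = 0.428 with the batch term).

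Of the metabotropic receptors, Grm5 (mGlu5, which couples to phospholipase C and is typical of astroglia and progenitors) had the highest mean level. It was at 26.1, 52.4, 0 and 26.9 RPKM in GRP3 and 46.8, 10.6, 0.0934 and 29.0 in PFMP. It was at 7.54, 5.59, 0.0556 and 12.8 in BNAP/GRP1, 0.708, 6.10, 0 and 13.3 in GRP2/MP3 and 5.72, 1.59, 0.0308 and 4.54 in NSC. GRP3 lay above both CD140a- gates in batches 1, 2 and 4, but PFMP 2 lay within the range of the CD140a- libraries, and the difference did not pass, at 1.54 (SE 0.90, limma adjusted p = 0.895 without the batch term, and SE 0.48, adjusted p = 0.129 with it). Grm3 (mGlu3, which lowers cyclic AMP and is also abundant in astroglia) stood out in single libraries. It was at 0.938, 2.87, 0.144 and 58.3 RPKM in PFMP, 0.519, 2.19, 0 and 22.5 in GRP2/MP3, 0.913, 0.429, 0 and 5.83 in GRP3, 2.08, 1.86, 0.0168 and 5.69 in BNAP/GRP1 and 0.627, 1.65, 0 and 7.68 in NSC. Its difference was 0.06 ± 0.38 (adjusted p = 0.942 with the batch term), and its 2 highest libraries were PFMP 4 and GRP2/MP3 4, the libraries in which Grin2b was also highest. Grm2, Grm4, Grm6, Grm7 and Grm8 were at most 5.83 RPKM in any library other than BNAP/GRP1 4.

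GABA-A receptors are pentamers, most often of alpha, beta and gamma subunits. Gabra2 (alpha 2, an alpha subunit abundant in the immature forebrain) was at 10.1, 15.9, 0.0209 and 45.7 RPKM in PFMP, 6.88, 6.68, 0.0219 and 12.03 in GRP3, 3.17, 1.37, 0.00813 and 23.1 in GRP2/MP3, 3.27, 6.63, 0.0142 and 16.6 in BNAP/GRP1 and 3.44, 1.49, 0.286 and 10.3 in NSC. The gates overlapped, PFMP 4 and GRP2/MP3 4 being highest (0.71 ± 0.36, adjusted p = 0.436 with the batch term).

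Gabra3 (alpha 3) was under 1 RPKM outside the CD140a+ gates except in BNAP/GRP1 4 (7.58). That value was above 3 of the 4 CD140a+ libraries of batches 1 and 2. The CD140a+ mean of Gabra3 was 5.20 ± 4.17 RPKM against 1.18 ± 2.59 (SD, n = 8 libraries, 2 gates from each of 4 batches). Gabra3 passed only without batch 3 and with the batch term together (limma adjusted p = 0.0374, and 0.0827 with batch 3). Gabrg1 (gamma 1) reached 18.3 in GRP3 2 and 16.2 in PFMP 1 (adjusted p = 0.215). Gabrg3 (gamma 3) was at 4.23, 2.76, 0.505 and 10.8 in NSC, above the other populations of batches 1 and 3, but with no call in the comparison of NSC with the 4 progenitors (adjusted p = 0.216 with the batch term). Gabra6, Gabrd, Gabre and Gabrp, subunits of mature cerebellar, extrasynaptic or peripheral receptors, were at most 2.69 RPKM outside BNAP/GRP1 4. Gabra4, Gabra5, Gabrb1, Gabrb2 and Gabrq were at most 16.2 there (Gabra4 in PFMP 4), and none passed in any comparison.

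The NSC gate was set apart by Gabrr1 (ENSMUSG00000028280, chr4:33132521-33163588, plus strand), which encodes the rho 1 subunit of bicuculline-insensitive GABA-A receptors best known from the retina. It was at 4.03, 14.0, 1.03 and 2.34 RPKM in NSC. It was at 0.0108, 0.335, 0 and 4.67 in BNAP/GRP1, 0, 0, 0 and 0.393 in GRP2/MP3, 0, 0, 0 and 0.748 in GRP3 and 0.184, 0, 0 and 0.0110 in PFMP. Apart from BNAP/GRP1 4, every NSC library was above every progenitor library, and NSC 3 kept 1 RPKM or more of it. NSC exceeded the mean of the 4 progenitors by 1.97 (SE 0.47, limma adjusted p = 0.0248 without the batch term, and SE 0.42, adjusted p = 0.00730 with it), and by batch by 2.27, 3.80, 1.02 and 0.79. It was the only receptor gene called in that comparison, where 1.96% of all genes were higher and 0.0217% lower. The call rested on NSC 1 and NSC 2: without NSC 1 the difference was 1.94 (adjusted p = 0.109) and without NSC 2 it was 1.42 (adjusted p = 0.281). Gabrr1 also passed the filter on low genes through NSC, since only the 4 NSC libraries and BNAP/GRP1 4 reached 1 RPKM. With no such filter the limma adjusted p was 0.0509. The neighbouring Gabrr2 (rho 2) was at 0.135, 2.78, 0.164 and 0.898 in NSC and at most 1.29 in the progenitors other than BNAP/GRP1 4 (4.66), too low to enter the test. Ependymal markers moved with Gabrr1: 5 of them, among them Foxj1, summed to 1176 to 12498 RPKM in NSC and to at most 86.2 in any progenitor library, and their part in the result was not tested.

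The GABA-B subunit Gabbr1, which binds GABA, was the most abundant GABA receptor gene. It was at 90.4, 78.4, 2.64 and 19.2 RPKM in GRP3 and 71.1, 69.5, 3.02 and 34.9 in PFMP. It was at 36.8, 24.6, 2.52 and 25.1 in BNAP/GRP1, 10.7, 26.9, 2.24 and 21.9 in GRP2/MP3 and 21.3, 15.03, 5.88 and 19.3 in NSC. CD140a+ libraries were higher in batches 1 and 2 and overlapped with the others in batch 4, and the difference was 0.94 (SE 0.75, limma adjusted p = 0.895 without the batch term, and SE 0.37, adjusted p = 0.272 with it). Its partner Gabbr2, which couples the receptor to G proteins, was at 3.504, 1.98, 0.106 and 3.26 in GRP3, 2.35, 4.32, 0.166 and 5.20 in PFMP, 0.973, 4.90, 0.256 and 8.67 in BNAP/GRP1, 0.331, 0.194, 0.0478 and 2.99 in GRP2/MP3 and 0.105, 0.554, 0.225 and 2.38 in NSC. It was below Gabbr1 in all 20 libraries and held at most 25.6% of the pair outside batch 3 (0.39 ± 0.34, adjusted p = 0.581 with the batch term).

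Each progenitor was next set against NSC. The 4 comparisons share the NSC libraries, so their values are given side by side and not as separate evidence. Without the batch term no receptor gene passed in any of them (limma, 40 tested). The share of all genes called was 1.14% in PFMP, 1.05% in GRP3, 1.12% in GRP2/MP3 and 0.76% in BNAP/GRP1. At an unadjusted p under 0.05, 6 receptor genes were higher in GRP3 (1.26% of all genes) and 1 in PFMP (0.793%), and none in the CD140a- gates (0.873% in GRP2/MP3 and 1.87% in BNAP/GRP1). Gabrr1 was the 1 receptor gene lower at that level in each of them, where 4.03% to 5.08% of all genes were lower. With the batch term Gria2 was higher in GRP3 (3.104 ± 0.65, adjusted p = 0.00994) and in PFMP (2.53 ± 0.65, adjusted p = 0.0408), where 0.275% and 0.185% of all genes were higher. In the CD140a- gates its difference was 0.25 (GRP2/MP3, adjusted p = 1.00) and 0.96 (BNAP/GRP1, adjusted p = 0.465). Without the batch term the adjusted p of Gria2 was 0.861 in GRP3 and 1.00 in PFMP. With it, the calls were lost without batch 1, 2 or 4. The limma adjusted p was then 0.111, 0.239 and 0.152 in GRP3 and 0.351, 0.459 and 0.241 in PFMP. Of 27614 genes 9, 7 and 5 were higher in GRP3 in these settings, and 3, 0 and 5 in PFMP. Gabrr1 was lower with the batch term in GRP2/MP3 (-2.13 ± 0.53, adjusted p = 0.0311), GRP3 (-2.05 ± 0.53, adjusted p = 0.0449) and PFMP (-2.18 ± 0.53, adjusted p = 0.0286), and in BNAP/GRP1 it was at -1.52 ± 0.53 (adjusted p = 0.188, and 0.0188 when BNAP/GRP1 4 was left out). In these comparisons 2.02% to 2.91% of all genes were lower. The 3 calls of Gabrr1 were lost without batch 3 (adjusted p = 0.0674, 0.0884 and 0.0603) and without batch 1 or batch 2 (adjusted p = 0.215 to 0.587). Gria3 in GRP3 (2.56 ± 0.72, adjusted p = 0.0680) and in PFMP (2.24 ± 0.72, adjusted p = 0.124) and Grin3a in GRP3 (2.602 ± 0.79, adjusted p = 0.103) and in PFMP (2.18 ± 0.79, adjusted p = 0.204) did not pass with the batch term.

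The number of receptor genes called depended on which batches were in the fit. With batch 3 left out and no batch term, Gria2, Gria3 and Grin3a were higher in CD140a+ than in CD140a- progenitors (differences of 2.76, 3.05 and 3.08, adjusted p = 0.00650, 0.00631 and 0.0114), where 0.616% of all genes were higher. Against NSC the same setting gave Gria2, Gria3 and Grin3a in GRP3 (4.09, 3.60 and 3.48, adjusted p = 0.00237, 0.0106 and 0.0405) and Gria2 and Gria3 in PFMP (3.41 and 3.101, adjusted p = 0.00854 and 0.0283), beside 0.315% and 0.228% of all genes. The CD140a calls with the batch term needed the other batches and BNAP/GRP1 4. Without BNAP/GRP1 4 the limma adjusted p of Gria2 was 0.0661, with a difference of 2.23. Without batch 1, 2 or 4 it was 0.638, 0.510 and 0.219, with differences of 1.66, 2.03 and 2.4005. Gria3 and Grin3a lost their calls in the same settings. Of all 27614 genes 0 were higher in each of these settings, and 0 were lower, or 1 without batch 4.

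The second gate marker gave no calls. Between CD15+ (BNAP/GRP1 and PFMP) and CD15- (GRP2/MP3 and GRP3) progenitors, 0 of 40 receptor genes passed in limma without or with the batch term, and 0 had an unadjusted p under 0.05, as 0 of all 27614 genes passed (0.0688% higher and 0.228% lower at an unadjusted p under 0.05 without the batch term). Of the 47 genes 9 were higher in CD15+ gates in all 4 batches and 0 lower, beside 3.52% and 1.1% of all genes, and BNAP/GRP1 4 is among the CD15+ libraries.

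Genes that serve these receptors were counted in 3 lists: 19 auxiliary subunits, 21 scaffolds and synaptic organisers, and 16 genes of transmitter synthesis, uptake and release, of which 17, 20 and 15 were tested. Without the batch term none passed in any of the 7 comparisons (limma). With it, the CD140a+ gates had 1 auxiliary subunit higher and 1 lower, 3 organisers higher and 0 lower, and 1 transmitter gene higher and 0 lower, where 0.442% of all genes were higher and 0.999% lower. Cacng4, an AMPA receptor auxiliary subunit (TARP gamma 4), was at 123, 59.6, 0.870 and 89.4 RPKM in GRP3, 32.1, 168, 1.79 and 68.2 in PFMP, 6.23, 8.19, 0.617 and 12.8 in BNAP/GRP1 and 2.97, 1.72, 0.212 and 42.5 in GRP2/MP3 (2.58 ± 0.56, adjusted p = 0.0385 with the batch term and 0.841 without it). Among the neuroligins, adhesion molecules of the postsynaptic side, Nlgn3 was higher (2.26 ± 0.45, adjusted p = 0.0377 with the batch term and 0.895 without it), as were Nlgn2 (2.13 ± 0.51, adjusted p = 0.0461 with the batch term and 0.824 without it) and Nlgn1 (1.64 ± 0.36, adjusted p = 0.0385 with the batch term and 0.895 without it). The glutamate transporter gene Slc1a1 (EAAC1) was at 49.8, 42.6, 0.365 and 20.2 in GRP3, 43.4, 42.6, 0.153 and 19.2 in PFMP, 5.77, 4.06, 0.195 and 11.4 in BNAP/GRP1, 1.75, 2.07, 0 and 7.18 in GRP2/MP3 and 2.36, 0.882, 0 and 3.72 in NSC (2.04 ± 0.46, adjusted p = 0.0415 with the batch term and 0.895 without it). On the log2(RPKM + 1) scale all 5 of these genes were higher in CD140a+ gates in each of the 4 batches (4.25% of all genes). The rule for naming partner genes required such agreement, so it is no separate evidence. The smallest of these differences was that of Nlgn2 in batch 4, at 0.029. Kctd12, a GABA-B auxiliary subunit, was lower (-2.28 ± 0.49, adjusted p = 0.0385 with the batch term and 0.650 without it): it was at 92.6, 19.96, 27.4 and 9.64 in BNAP/GRP1, 39.9, 93.5, 26.6 and 9.74 in GRP2/MP3, 2.90, 3.04, 25.7 and 2.65 in GRP3 and 3.13, 1.83, 27.1 and 3.43 in PFMP, with close values in all 4 gates of batch 3.

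Against NSC, with the batch term, Slc1a1 was higher in GRP3 (2.77 ± 0.65, adjusted p = 0.0238 with the batch term and 0.682 without it) and PFMP (2.64 ± 0.65, adjusted p = 0.0320 with the batch term and 0.725 without it), as was Neto1, a kainate receptor auxiliary subunit, in GRP3 (2.75 ± 0.71, adjusted p = 0.0419 with the batch term and 0.440 without it). In GRP2/MP3, Lhfpl4, which helps GABA-A receptors to cluster with neuroligin 2, was lower (-2.41 ± 0.58, adjusted p = 0.0250 with the batch term and 0.707 without it), as was Abat, which breaks down GABA (-1.73 ± 0.46, adjusted p = 0.0443 with the batch term and 1.00 without it). NSC exceeded the mean of the 4 progenitors in Slc17a8, the vesicular glutamate transporter VGLUT3 (1.89 ± 0.48, adjusted p = 0.0246 with the batch term and 0.0902 without it), in the scaffold Shank2 (1.47 ± 0.41, adjusted p = 0.0453 with the batch term and 0.642 without it) and in Abat (1.42 ± 0.36, adjusted p = 0.0267 with the batch term and 0.994 without it). Slc17a8 was at 12.8, 7.71, 1.62 and 2.41 RPKM in NSC and, outside BNAP/GRP1 4, at most 2.74 in a progenitor library.

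Markers of several cell types moved with the gates. Pdgfra, the gene of the gating antigen CD140a, was at 512, 803, 3.41 and 171 RPKM in GRP3, 658, 239.8, 3.84 and 96.9 in PFMP, 3.59, 3.47, 2.26 and 24.1 in BNAP/GRP1 and 1.80, 5.23, 2.18 and 7.49 in GRP2/MP3, so it followed the gates in batches 1, 2 and 4 and hardly differed between them in batch 3. Cspg4, the gene of NG2, was at 93.2, 80.9, 0.245 and 11.7 in GRP3, 23.5, 146, 0.398 and 4.70 in PFMP, 0.844, 0.249, 0.0362 and 8.49 in BNAP/GRP1, 5.91, 9.64, 0.0431 and 7.89 in GRP2/MP3 and 0.405, 0.438, 0.197 and 1.12 in NSC, and was under 1 in BNAP/GRP1 1 and 2 although that gate is NG2+. Both are among the OPC markers counted here, which are thus not independent of the sort. The 8 OPC markers summed to 379 to 3667 RPKM in CD140a+ and 22.8 to 180.3 in CD140a- libraries of batches 1, 2 and 4, and 7 of the 8 were higher in CD140a+ gates in each of these batches. In batch 3 the sums were 15.2 to 15.7 and 2.92 to 3.59. In the same 3 batches 6 microglia markers summed to 87.1 to 3345 in CD140a- and 10.01 to 45.0 in CD140a+ libraries, and 7 markers of astroglia and radial glia to 335 to 7020 and 3543 to 14821. By the mean log2(RPKM + 1) of the gates, 0 of the 6 microglia markers were higher in CD140a+ gates in each of these batches, and of the 7 astroglial markers 1 was, Fabp7, which made up most of the sum. The 6 pericyte markers summed to 509, 448 and 7332 in GRP2/MP3 1, 2 and 4 and to at most 185 in any library of another population. The 5 endothelial markers summed to at most 13.5 in CD140a+ libraries and at most 179 in any. The sum of the 8 neuroblast markers was highest in GRP2/MP3 4 (848) and PFMP 4 (697), the libraries with the highest Grm3, Gabra2 and Grin2b. Single neuroblast markers were split: Sp8 (408 and 256), Stmn2 (274 and 243) and Tubb3 (74.5 and 93.3) were highest in these libraries. Dlx1, Dlx2 and Dlx5 were highest in GRP2/MP3 2, Dcx in PFMP 1 and Sp9 in BNAP/GRP1 4. The 6 neuron markers summed to 25.6 to 112 and 44.5 to 124 in CD140a- and CD140a+ libraries of batches 1, 2 and 4. Of the astroglial markers, Aldoc (2344 and 1189) and Aldh1l1 (45.6 and 33.4) were also highest in PFMP 4 and GRP2/MP3 4. Gfap was highest in PFMP 4, Slc1a3 and Gja1 in NSC 4, Aqp4 in NSC 2 and Fabp7 in GRP3 2. No marker was at 0 in all 4 libraries of any population. The part of these cells in the receptor differences was not tested. Across libraries the summed AMPA genes and the summed OPC markers put the population medians in the same order, with batch 3 at the bottom of both, which the plot of receptor and marker levels shows.

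**Figure D5:**
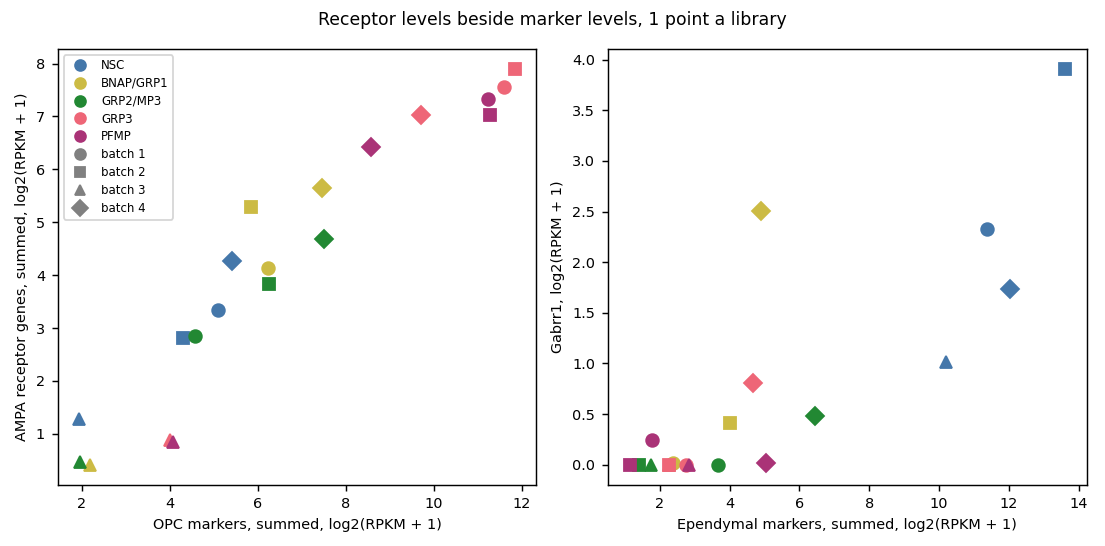
Summed RPKM of the 4 AMPA receptor genes against that of 8 OPC markers (left) and RPKM of Gabrr1 against the summed RPKM of 5 ependymal markers (right), both axes as log2(RPKM + 1); each point is 1 library, with the population as colour and the batch as shape. GRP3 and PFMP of batches 1, 2 and 4 lie at the top right on the left side, and the 4 NSC libraries at the right on the right side.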

How the data were processed

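RNA of the 20 libraries was amplified from polyA ends, sequenced for 75 cycles on a NextSeq500 and, per the labels, processed by the authors against GRCm38 with cutadapt 3.4, FastQC 0.11.9, STAR 2.6.1 and Salmon 1.9.0. The authors deposited RPKM per gene and library; the gene lengths and read totals behind these values are not given in the sources used here, so no count test was run, absolute depth is unknown and relative depth was read from the spacing of low values. The table also held 26 columns without a name or a value, which were not used. Genes were followed by Ensembl ID, since 94 names are duplicated. The study's methods state no batch term.

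From the RPKM values, log2(RPKM + 1) was fitted with limma 3.58.1 (R 4.3.3, trended prior, 2-sided, Benjamini-Hochberg over the 27614 genes that reached 1 RPKM in 4 or more libraries, threshold 0.05), with 1 mean per population over all 20 libraries. The procedure was tested on simulated data. Libraries with the same batch number deviated together from their population means. The median correlation across genes was 0.337, 0.262, 0.769 and 0.581 in batches 1 to 4 (lowest 0.0341). Because of these values the fit with batch as a term is printed beside each result it changes. Between libraries of different batch and population the median was -0.204. Deviations from a population mean cancel out over its libraries, which pulls that median down, so it is no separate evidence. Cells of pooled pups make up each library. Without the batch term, p-values measure the spread between libraries of a population and treat libraries of 1 batch as independent. With the batch term they measure the spread left after the batch levels are taken out. The members and lists were chosen with earlier results of these data known. Genes were given in full if they passed the threshold without or with the batch term, or were the first or second by mean RPKM of their family. Some member genes are counted in totals but not reported here by name or in the plots. Gria1, Gria4, Grin2b, Gabra3, Gabrg1, Gabrg3 and Gabrr2 were described after their values were seen. Partner genes were named if they passed and had the same sign in all 4 batches, at most 3 per list and direction. Promoters are RefSeq sequence of GRCm38.p6, cut at the first annotated transcript start. The alternatives were the batch term, other scalings, filters and pseudocount, and libraries left out.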

Additional observations from a re-analysis of the deposited data

Results flagged for a closer look

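For 15 of the genes, each population of 4 libraries was checked for a library apart from the other 3 (Dixon's ratio of gap to range on the log2(RPKM + 1) scale, above its critical value). Of 75 such groups 10 held one, where chance gives about 1 in 20, and 5 of the 10 libraries were of batch 3. Those of batch 3 were low. Gria3 was at 0.0507 RPKM in GRP3 3, where the other libraries were at 34.5 to 39.7, and at 0.220 in PFMP 3, against 21.7 to 38.6. Grik2 was at 0.185 in GRP3 3, against 6.65 to 9.87. Grm5 was listed at 0 in GRP3 3, against 26.1 to 52.4, and Gabbr1 was at 2.52 in BNAP/GRP1 3, against 24.6 to 36.8.

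The libraries of the other batches were high. Gabrr1 was at 4.67 RPKM in BNAP/GRP1 4, against 0 to 0.335 in the other BNAP/GRP1 libraries. It was at 0.393 in GRP2/MP3 4 and at 0.748 in GRP3 4, where the other libraries of those gates were listed at 0, and at 0.184 in PFMP 1, against 0 to 0.0110. With the other libraries at 0 the ratio is 1 for any value above 0. The flags in GRP2/MP3 4 and GRP3 4 were thus fixed in advance and cannot be set against the chance rate above. Grin1 was at 3.74 in NSC 4, against 0.116 to 0.413 in the other NSC libraries.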

How the results depend on the processing

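Of 814 values of 25 gene differences under the alternatives, 751 kept their direction and side of the threshold, 48 newly passed, 5 no longer passed and 10 changed sign. Settings that left out BNAP/GRP1 4, batch 1, batch 2 or batch 4 with the replicate block were added after the data were seen.

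With the replicate block (batch as a term), the receptor genes called were 3 in CD140a+ against CD140a-, 2 in GRP3, 2 in PFMP and 1 in GRP2/MP3 against NSC, where none were called without it, and 11 partner genes against 0. Of all genes, 1.44%, 2.6%, 2.79% and 3.08% were called in these comparisons with it, in that order. The block changed no other receptor call. Without batch 3 the counts were 4 for CD140a, 3 for GRP3, 2 for PFMP and 2 for NSC against the 4 progenitors. Of all genes, 1.94%, 1.68%, 1.75% and 2.55% were called there. With the replicate block as well the counts were 5, 4, 2 and 2. Of 27614 genes, 274, 145, 110 and 880 were then higher and 498, 526, 582 and 95 lower. In these settings 6 and 7 partner genes passed. Quantile normalization gave 1 lower in each of BNAP/GRP1, GRP2/MP3, GRP3 and PFMP against NSC. Of 27614 genes, 439, 432, 446 and 367 were lower there. Median-of-ratios scaling gave 1 lower in PFMP, where 380 of all genes were lower. Under each scaling 1 partner gene passed. NSC against the 4 progenitors, 1 in the main fit, gave 0 with no filter and 0 with the stricter filter. Of all genes, 452 of 42687 and 415 of 12850 were higher there, and the stricter filter kept 10 receptor genes. With the replicate block and without BNAP/GRP1 4 the counts were 1, 2, 3 and 2 in BNAP/GRP1, GRP2/MP3, GRP3 and PFMP against NSC. Of 27614 genes, 8, 75, 111 and 57 were higher there and 802, 1100, 856 and 1078 lower. The counts were 2 for NSC against the 4 progenitors (all genes: 1588 higher and 81 lower) and 0 for CD140a (all genes: 0 and 0). For the partner genes the count was 7. Without batch 4 the block gave 1 lower in each of the 4 comparisons with NSC, and 4 partner genes. Of 27614 genes, 674, 814, 589 and 599 were lower in BNAP/GRP1, GRP2/MP3, GRP3 and PFMP there. Without batch 1 or batch 2 the block gave 0 for NSC against the 4 progenitors, where 538 and 492 of all genes were higher. With 1 library left out in turn and no block, the counts ran from 0 to 1 in each comparison with NSC and in NSC against the 4 progenitors, and for the partner genes (1 without BNAP/GRP1 4 or NSC 3). Gabrr1 was called in each comparison with NSC without BNAP/GRP1 4, in GRP2/MP3, GRP3 and PFMP without NSC 3, and not in NSC against the 4 progenitors without NSC 1 or NSC 2. CD15+ against CD15- gave 0 in all 33 settings. The cause of these shifts was not tested.

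The values that changed sign were those of CD140a+ against CD140a-. Grin1 was at -0.041 without batch 1 with the block and ran from -0.062 (without BNAP/GRP1 3) to 0.77 with 1 library left out. Grik2 was at -0.056 without batch 1 with the block. Grm3 was at -0.15 without BNAP/GRP1 4 with the block, at -0.15 without batch 4 with the block, and ran from -0.55 (without PFMP 4) to 0.53 with 1 library left out. Fitting only the populations compared was not run for NSC against the 4 progenitors, which uses all 5. Scaling moved the median difference of all genes in BNAP/GRP1 against NSC from 0.38 to 0.09 (quantile), and no gene given in full changed sign under it. BNAP/GRP1 4 was the shallowest library, so a given RPKM of a gene rests on the fewest reads there.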
